A study of Mus musculus with 16 samples.

Results

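The genes described here are the neurotrophins and their receptors in the mouse dorsal raphe nucleus (DRN), a midbrain site rich in serotonin neurons. The members were named by symbol (Bdnf, Ntf3, Ntrk2, Ntrk3, Ngfr and Sort1), by a rule that uses no measured value, although earlier results of these data were known when they were named. Of the 6 symbols, 5 had a row among the 14504 genes of the normalized count table; Ntf3 had none and was not analysed here. PolyA RNA was sequenced from 16 libraries of adult male C57BL/6 mice. Control mice without defeat gave 3 libraries after saline and 3 after dexamethasone (DEX), a synthetic agonist of the glucocorticoid receptor. Mice defeated by CD1 aggressors on 30 days in a row were divided by behavior into a passive coping strategy (PS; 2 saline and 3 DEX libraries) and an active coping strategy (AS; 3 saline and 2 DEX libraries). DEX was given once at 2 mg/kg, and the nucleus was taken 6 h after DEX or saline. In defeated mice the injection came a day after the last defeat. Controls were housed alone for 5 days beforehand and defeated mice beside CD1 males, so defeat and housing cannot be told apart. Stressed mice were grouped by their own behavior rather than by assignment, so coping strategy and whatever preceded it cannot be told apart. Each library keeps its label, such as con_sal_102, with PS and AS written for the labels dep1 and dep2.

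Neurotrophins are secreted growth factors that are made as longer precursors and cut to the mature form by proteases such as furin. Mature BDNF binds the receptor tyrosine kinase TrkB, encoded by Ntrk2, and neurotrophin-3 binds TrkC, encoded by Ntrk3. Active Trk receptors recruit adaptor proteins and signal through the Ras to ERK, PI3K to Akt and phospholipase C to calcium routes. The precursors bind p75, encoded by Ngfr, together with sortilin, encoded by Sort1, which also sorts BDNF precursor inside the cell. Ntrk2 yields a full-length kinase receptor, typical of neurons, and truncated forms that are abundant in astrocytes. Bdnf transcription starts at several alternative first exons, and the glucocorticoid receptor and the activity-regulated factor CREB are both known regulators of the gene.

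The values were gene totals, so they sum over all transcripts of a gene: 11 annotated transcripts of Bdnf, 10 of Ntrk2, 20 of Ntrk3, 3 of Sort1 and 1 of Ngfr. Full-length and truncated receptors, or Bdnf transcripts from different starts, were therefore not separated. RefSeq start windows on GRCm38.p6, running from 250 bases before to 50 bases after an annotated start, were found for 3 of the 5 measured members: 7 for Bdnf, 1 for Ntrk2 and 1 for Ngfr. The 4 Bdnf windows that hold a searched motif are printed because the Bdnf count adds transcripts from all of these starts. Capitals mark AGAACA, the core hexamer of the glucocorticoid response element, or TGACG, the core of the CREB site, on either strand.
Bdnf start window chr2:109674450-109674749, plus strand: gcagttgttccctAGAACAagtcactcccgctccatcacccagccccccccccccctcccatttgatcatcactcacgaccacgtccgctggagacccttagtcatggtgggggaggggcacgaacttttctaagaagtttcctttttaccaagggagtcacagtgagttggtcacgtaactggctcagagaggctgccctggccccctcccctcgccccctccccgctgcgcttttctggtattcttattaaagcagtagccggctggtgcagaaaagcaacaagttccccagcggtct
Bdnf start window chr2:109676782-109677081, plus strand: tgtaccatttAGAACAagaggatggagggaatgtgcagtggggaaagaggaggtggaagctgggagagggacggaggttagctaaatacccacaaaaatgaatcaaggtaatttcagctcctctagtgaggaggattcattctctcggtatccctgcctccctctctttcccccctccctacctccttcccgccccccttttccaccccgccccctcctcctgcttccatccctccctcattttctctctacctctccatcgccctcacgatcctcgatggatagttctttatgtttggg
Bdnf start window chr2:109692186-109692485, plus strand: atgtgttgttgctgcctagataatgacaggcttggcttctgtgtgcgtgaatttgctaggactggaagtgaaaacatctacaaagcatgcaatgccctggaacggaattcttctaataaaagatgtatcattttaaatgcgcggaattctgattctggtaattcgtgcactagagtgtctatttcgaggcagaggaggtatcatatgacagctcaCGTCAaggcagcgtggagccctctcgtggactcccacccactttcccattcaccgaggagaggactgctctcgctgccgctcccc
Bdnf start window chr2:109709133-109709432, plus strand: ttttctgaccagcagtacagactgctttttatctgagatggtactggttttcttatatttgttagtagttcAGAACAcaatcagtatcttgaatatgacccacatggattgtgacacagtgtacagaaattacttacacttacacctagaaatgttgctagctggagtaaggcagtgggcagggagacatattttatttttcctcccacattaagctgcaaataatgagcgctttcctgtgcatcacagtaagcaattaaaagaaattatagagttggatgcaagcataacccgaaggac

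AGAACA occurred in 3 of the 7 Bdnf windows, against 19.0% of all 32851 windows in the table. TGACG occurred in 1 of the 7 Bdnf windows, against 20.8% of all windows. The full CREB site, TGACGTCA, which contains TGACG, was found in none of the 9 windows of these genes and in 1.79% of all windows. The full palindromic response element, AGAACA and its reverse complement set 3 bases apart, was in none of the 9 and in 3 windows of the whole table. The Ntrk2 and Ngfr windows held none of the 4 motifs. These are matches of letters in short windows, with no measurement of binding.

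All libraries carried the mark of the treatment: the glucocorticoid target Fkbp5 lay between 1241 and 1536 normalized counts in the 8 saline libraries and between 5578 and 6958 in the 8 DEX libraries. Tph2, which encodes the serotonin-synthesizing enzyme of raphe neurons, was between 91764 and 182191 in every library, and all 6 serotonin neuron markers were detected throughout. The authors had excluded DRN libraries with low Tph2 beforehand, so the Tph2 range is no independent check of the tissue. Libraries held 38207157 to 62447298 reads in the listed genes. The libraries con_sal_104 and AS_sal_40 stood apart. In each library the log2 deviation of every gene from its mean was regressed on the log10 of its exon length, and the slope was -0.57 in con_sal_104 and -0.61 in AS_sal_40 against -0.22 to 0.30 elsewhere. In these libraries, genes with long exon sequence thus had low values. Both are saline libraries, so values that move with them are also given without them.

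Ntrk2 was by far the most abundant member. Its mean over the 16 libraries was 34327 normalized counts (coefficient of variation, CV, 13.8%), a level above 99.1% of the genes tested, and it ranged from 24616 in AS_sal_40 to 40186 in PS_dex_64. Ntrk3 averaged 13874 and Sort1 9540 normalized counts. Bdnf and Ngfr, at 702.7 and 551.4 normalized counts, lay below the middle of the table, at percentiles 37.2 and 32.3. Bdnf was counted from 463 to 1472 reads per library and Ngfr from 307 to 794, so reads were not scarce for either. The ligand was thus present at a small part of the level of its receptor in the same tissue, a statement on RNA of the whole nucleus and not of any cell type.

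Per kilobase of exon sequence, the order was Ntrk2 (1779), Sort1 (1260), Ntrk3 (460), Ngfr (160) and Bdnf (113 normalized counts per kb). Exon length is the union of all annotated exons, which is long for Ntrk3 (30170 bases) and Ntrk2 (19292) and counts exons that these cells may not use. Within each library, Ntrk2 lay above Sort1 in 16 of 16 libraries, and Sort1 above Ntrk3 in 16 of 16. Ntrk3 exceeded Ngfr in 15 of 16 libraries, the exception being con_sal_104. Ngfr exceeded Bdnf in 15 of 16, the exception being con_sal_114. Across libraries the ranges of these last neighbors overlapped: the lowest Ngfr level was 82.1 and the highest Bdnf level 218.3 per kb.

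On GRCm38 the members lie on separate chromosomes, all as protein-coding genes. Bdnf is at chr2:109674700-109727007, Ntrk2 at chr13:58806569-59133970, Ntrk3 at chr7:78175959-78738012, Ngfr at chr11:95568818-95587735 and Sort1 at chr3:108284082-108361511. The antisense gene Gm45346 overlaps 896 exonic bases of Bdnf and Gm12523 overlaps 338 exonic bases of Sort1. Libraries were strand-specific, but whether strand was used in counting is not stated, so reads from these partners may be included.

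**Figure D1:**
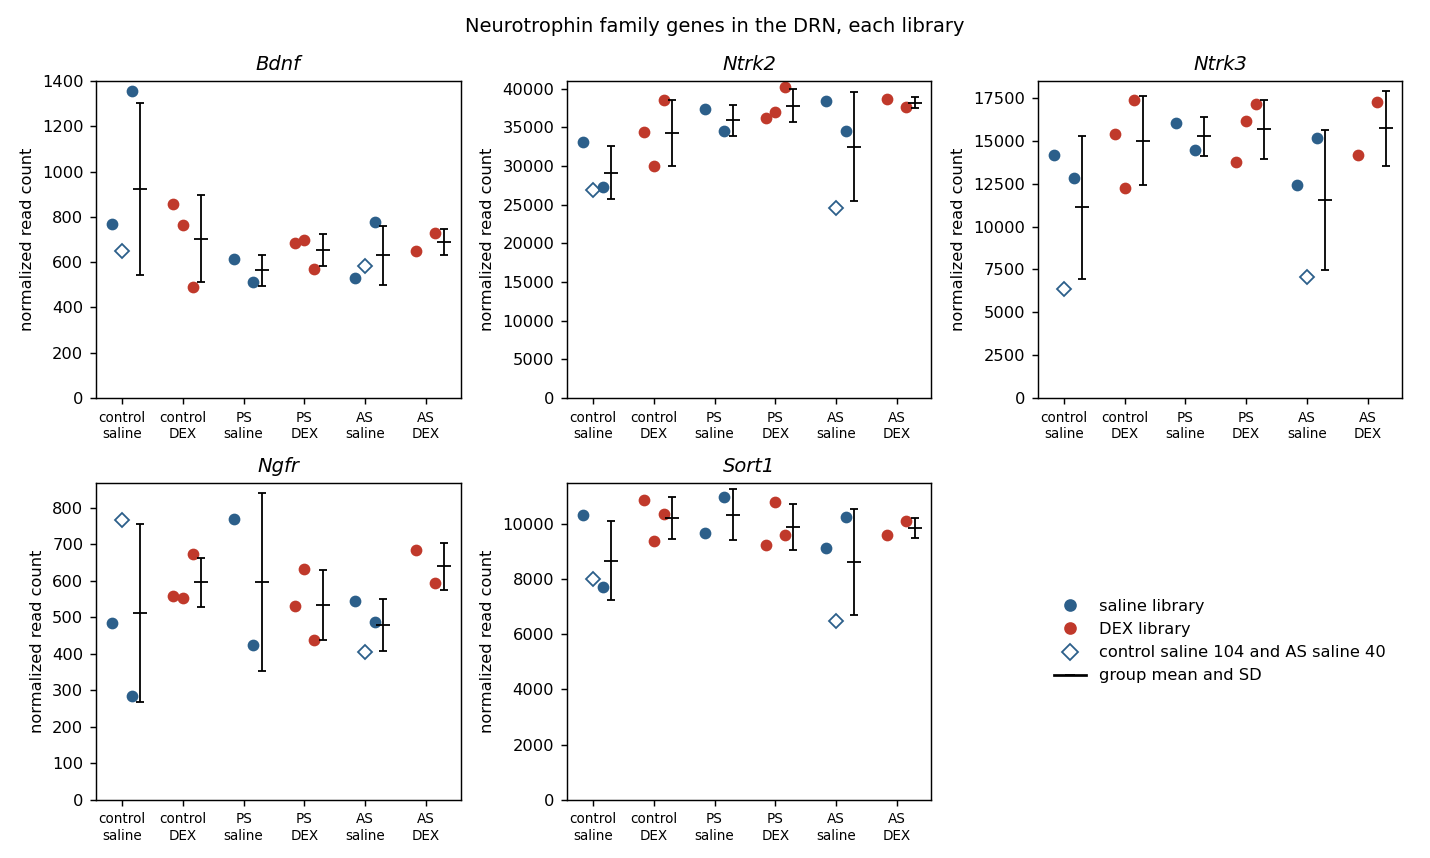
Normalized read count (vertical axes, from 0) of each measured member in each of the 16 libraries, by group; blue points are saline and red points DEX libraries, open diamonds are con_sal_104 and AS_sal_40, and black bars give the group mean and SD. Ntrk3 is lowest in the open diamonds (6363 and 7079), while the highest Bdnf value, 1357, is a single control saline library.

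To find whether an acute glucocorticoid pulse or chronic stress altered this family, DEX was compared with saline in each phenotype and over all 3, PS, AS and control mice with each other within each treatment, and the DEX effects between phenotypes, 13 comparisons in all. Differences are log2 fold changes of normalized count + 1, tested with limma across all 14504 genes with Benjamini-Hochberg (BH) adjustment. Calls were made at an adjusted p below 0.1. None of the 5 members was called in any of the 13 comparisons. Of the 65 member values, 1 had an unadjusted p under 0.05 by limma, 1 by edgeR and 2 by DESeq2, all of them Bdnf in stressed against control saline mice. For all genes the share called was 1.26% for DEX in controls, 0.703% in PS, 0.689% in AS and 4.31% for the average over phenotypes. It was 0.00689%, a single gene, for AS against control under DEX and 0% in the other stress comparisons and in the interactions. In bulk tissue, fewer cells of a type and less RNA per cell cannot be told apart.

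Bdnf, the ligand of TrkB, showed no detectable shift after DEX when the phenotypes were averaged. Saline libraries ranged from 514.7 to 1357 with a median of 630.0, and DEX libraries from 489.7 to 857.4 with a median of 692.7 normalized counts. The DEX range lay within the saline range except for con_dex_122, the lowest library, and the highest saline library lay far above it. The averaged difference was -0.00 (SE 0.16, 95% interval -0.35 to 0.35), so the fold lay between 0.784 and 1.27 at this confidence. Without con_sal_104 and AS_sal_40 it was -0.09, and without con_sal_114 it was 0.10. By phenotype the DEX difference was -0.36 (SE 0.26) in controls, 0.21 (SE 0.29) in PS and 0.14 (SE 0.29) in AS mice. The opposite signs of controls and stressed mice were tested as interactions and were not called, with limma adjusted p of 0.9996 for PS and 0.941 for AS.

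In saline mice Bdnf was lower after stress in point estimate. The libraries con_sal_102, con_sal_104 and con_sal_114 held 769.8, 647.6 and 1357 normalized counts. PS_sal_62 and PS_sal_68 held 612.5 and 514.7, both below all 3 controls. AS_sal_14, AS_sal_40 and AS_sal_8 held 532.1, 583.9 and 779.2, which overlapped the controls. PS differed from control by -0.64 (SE 0.29, 95% interval -1.27 to -0.02; unadjusted limma p 0.0440, adjusted p 0.571). Of all genes, 14.2% were lower without overlap in this comparison, and 7.67% of genes had an unadjusted p under 0.05. The corresponding unadjusted p was 0.0310 by edgeR and 0.0172 by DESeq2, with adjusted p of 0.607 and 0.596. AS differed from control by -0.49 (SE 0.26, limma adjusted p 0.998). Without con_sal_104 and AS_sal_40 these differences were -0.86 and -0.67, neither called.

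A single library, con_sal_114, set much of that size. Without it the PS difference was -0.33, the AS difference -0.18 and the DEX difference in controls -0.04. Without con_sal_104 that DEX difference was -0.58 instead. The same library had the lowest Ngfr value of all, 283.1 normalized counts, and the lowest score for markers of motor and cholinergic neurons, -2.24, against -1.34 to 1.55 in the other libraries. The score is the mean log2 deviation over the 3 of 4 markers measured, while their summed level, 2002 normalized counts, lay inside the range elsewhere, 1608 to 7525. Markers of dopamine neurons had point estimates in the direction of Bdnf in saline mice. All 3 were lower in PS and in AS than in control saline mice, with median differences of -0.81 and -0.57 and none called. Their summed level was 3617 to 5898 normalized counts in control saline, 1167 to 4426 in PS saline and 2479 to 4893 in AS saline libraries. Over the 16 libraries the dopamine score and Bdnf gave r = 0.64 (rho 0.71, permutation p adjusted over 65 marker relations 0.0934 and 0.0730), not below 0.05. Without PS_sal_68 and AS_sal_40, the 2 libraries farthest from the median score, r was 0.64, with con_sal_114 still included. It was 0.75 within saline and 0.44 within DEX libraries. Scores of opposite sign included motor and cholinergic neurons (r = -0.55, rho -0.29, adjusted permutation p 0.123 and 0.544) and ependyma (r = -0.45, rho -0.62, adjusted permutation p 0.286 and 0.116). Without con_sal_114 and PS_sal_68 the motor and cholinergic r was -0.05. The part of these differences in tissue make-up in the Bdnf result was not tested. Under DEX, where control libraries held 489.7 to 857.4, PS differed from control by -0.08 (SE 0.26) and AS by 0.00 (SE 0.29).

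Ntrk2, the TrkB receptor, had point estimates above 0 after DEX. Saline libraries ranged from 24616 to 38353 with a median of 33789, and DEX libraries from 29972 to 40186 with a median of 37328 normalized counts. The upper parts of both ranges coincided, and the 3 lowest values were con_sal_104 (26922), con_sal_114 (27331) and AS_sal_40 (24616). The averaged DEX difference was 0.19 (SE 0.096, 95% interval -0.02 to 0.39; limma adjusted p 0.401). The interval excludes a fold above 1.31. Without con_sal_104 and AS_sal_40 the difference was 0.11, and with each library's exon length trend removed it was 0.00. In controls it was 0.24 (SE 0.15) and turned to -0.12 with the length trend removed.

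PS saline mice had 37343 and 34505 normalized counts of Ntrk2, above the control saline values of 33073, 26922 and 27331. The difference was 0.31 (SE 0.17, limma adjusted p 0.571), and 14.3% of all genes were higher without overlap in this comparison. It was 0.26 without both libraries and -0.10 with the length trend removed. AS against control saline gave 0.14 (SE 0.15), 0.33 without AS_sal_40 and 0.28 without both libraries. Over the 26 alternatives this AS difference ran from -0.01 to 0.33. The DEX difference in AS mice was 0.26 (SE 0.17), and 0.07 without AS_sal_40.

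Ntrk3, the TrkC receptor, had the widest spread among the receptors of high level. The libraries con_sal_102, con_sal_104 and con_sal_114 held 14149, 6363 and 12838 normalized counts. AS_sal_14, AS_sal_40 and AS_sal_8 held 12397, 7079 and 15159. Outside con_sal_104 and AS_sal_40 the lowest library was con_dex_116, at 12250. PS_sal_62 and PS_sal_68 held 16061 and 14453, which did not overlap the control saline values. Of all genes, 14.3% were higher without overlap in this comparison. The PS difference in saline was 0.54 (SE 0.33, limma adjusted p 0.572), but 0.18 without both libraries and -0.02 with the length trend removed.

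After DEX, Ntrk3 ranged from 12250 to 17390. The averaged difference was 0.35 (SE 0.18, 95% interval -0.04 to 0.74; limma adjusted p 0.411). Controls differed by 0.50 (SE 0.29), PS mice by 0.03 (SE 0.33) and AS mice by 0.51 (SE 0.33). Controls and AS are the phenotypes whose saline groups hold the libraries that stood apart. Without both, the averaged difference was 0.12, the control difference 0.14 and the AS difference 0.19. With the length trend removed the average was 0.10. The ratio of Ntrk3 to Ntrk2 counts was 0.236 in con_sal_104 and 0.288 in AS_sal_40, against 0.323 to 0.470 in the other 14 libraries.

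Ngfr, the p75 receptor shared by all neurotrophins, varied widely within groups. The libraries con_sal_102, con_sal_104 and con_sal_114 held 483.5, 766.7 and 283.1 normalized counts, and PS_sal_62 and PS_sal_68 held 768.3 and 423.9. The groups AS saline (544.7, 403.6 and 486.0) and AS DEX (684.9 and 593.0) did not overlap. The AS difference was 0.42 (SE 0.34, limma adjusted p 0.619), and 15.1% of all genes were higher without overlap there. Ngfr differed by 0.33 (SE 0.30) in controls and -0.11 (SE 0.34) in PS mice, and on average by 0.21 (SE 0.19, 95% interval -0.19 to 0.62). The control and averaged values depended on single libraries. Without con_sal_104 they were 0.68 and 0.33, and without con_sal_114 they were -0.04 and 0.09. Against control saline mice, PS differed by 0.27 (SE 0.34) and AS by 0.01 (SE 0.30), and without con_sal_104 and AS_sal_40 these were 0.62 and 0.47.

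Sort1, the sortilin co-receptor, had the lowest CV of the members, 13.0%. Saline libraries ranged from 6491 to 10991 and DEX libraries from 9245 to 10892 normalized counts. The saline libraries below the DEX range were con_sal_104 (7996), con_sal_114 (7718), AS_sal_14 (9122) and AS_sal_40 (6491). The averaged DEX difference was 0.13 (SE 0.096, 95% interval -0.07 to 0.34; limma adjusted p 0.538), and 0.05 without con_sal_104 and AS_sal_40. Over the 25 alternatives it ran from 0.05 to 0.18. By phenotype the difference was 0.25 (SE 0.15) in controls, -0.06 (SE 0.17) in PS and 0.22 (SE 0.17) in AS mice. Without con_sal_104 and AS_sal_40 it was 0.19 in controls and 0.03 in AS mice. Stress differences of Sort1 lay between -0.28 and 0.26 in the 6 stress comparisons. The lower end, AS against PS in saline, was -0.09 without AS_sal_40.

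**Figure D2:**
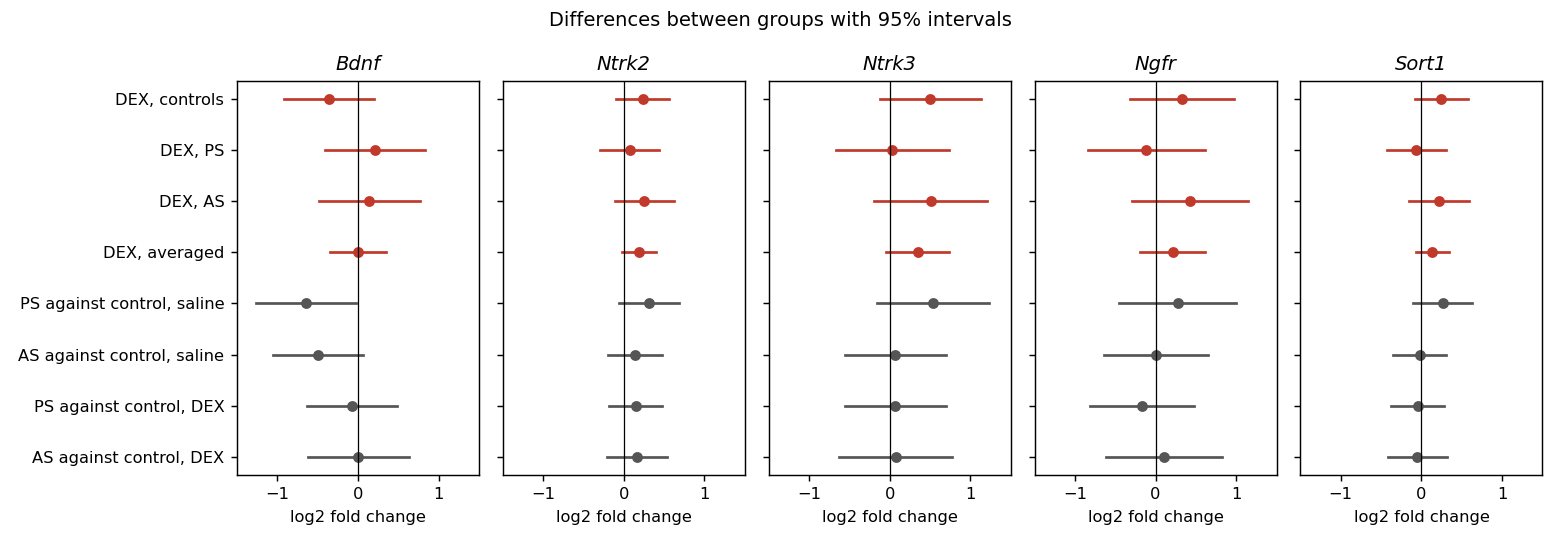
Log2 fold change (horizontal axis; points) with 95% intervals (lines) from limma for each measured member, with DEX against saline in red and stress against control in gray. Every interval includes 0 except that of Bdnf in PS against control saline mice, which runs from -1.27 to -0.02 and had an adjusted p of 0.571.

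Ntrk3, Sort1 and Ntrk2 followed the exon length slope of the library. Over the 16 libraries the log2 level correlated with the slope at r = 0.95 for Ntrk3 (rho 0.90), 0.92 for Sort1 (rho 0.88) and 0.83 for Ntrk2 (rho 0.55). Permutation p adjusted over the 5 relations was 7.50e-05 for Ntrk3 and Sort1 and 0.000450 for Ntrk2 for Pearson's r. For Bdnf r was -0.12 (rho -0.12, adjusted permutation p 0.650) and for Ngfr 0.18 (rho 0.24, adjusted permutation p 0.630). Without con_sal_104 and AS_sal_40, which are also the 2 libraries farthest from the median slope, r was 0.83 for Ntrk3, 0.87 for Sort1, 0.58 for Ntrk2, 0.46 for Ngfr and -0.51 for Bdnf, so Ngfr then stood close to Ntrk2. Within the 8 DEX libraries alone it was 0.88, 0.82 and 0.51. The slope is computed over all genes of the same libraries, so the points share their source.

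**Figure D3:**
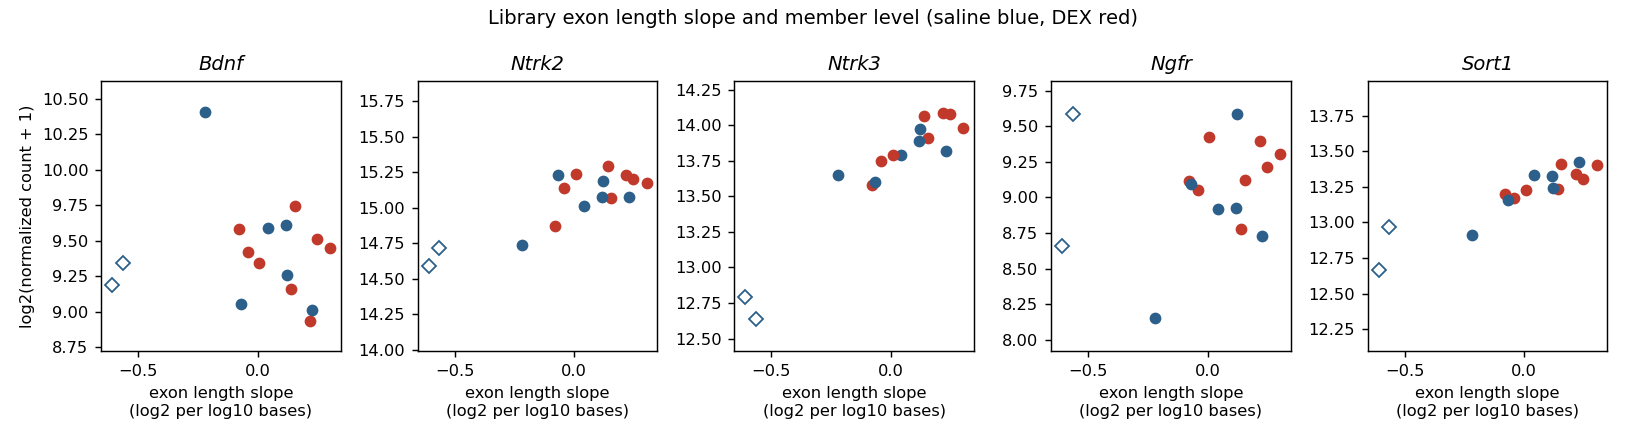
Log2(normalized count + 1) of each member (vertical axes, all spanning the same width) against the exon length slope of the library (horizontal axes); each point is 1 library, blue for saline and red for DEX, and the open diamonds are con_sal_104 and AS_sal_40. Over all 16 libraries Ntrk3 and Sort1 rise with the slope (r = 0.95 and 0.92), while Bdnf and Ngfr do not line up with it (r = -0.12 and 0.18). Without the open diamonds r is 0.83 for Ntrk3, 0.87 for Sort1, -0.51 for Bdnf and 0.46 for Ngfr.

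Pairs of these 3 receptors also correlated over the 16 libraries. Ntrk2 and Ntrk3 correlated at r = 0.82 (rho 0.69), with an adjusted permutation p of 0.00240 for r and 0.0214 for rho over the 10 pairs of members. Ntrk3 and Sort1 correlated at r = 0.80 (rho 0.71), with adjusted permutation p of 0.00627 and 0.0214. Ntrk2 and Sort1 gave r = 0.76 (adjusted permutation p 0.00627) but rho 0.30 (adjusted permutation p 0.517). Without both libraries these r fell to 0.61, 0.55 and 0.45, while r of Ntrk2 with Ngfr rose from 0.39 to 0.65, above all 3. Bdnf and its receptor Ntrk2 gave r = -0.39 (rho -0.46, adjusted permutation p 0.225 and 0.248), -0.79 without both libraries and -0.07 without con_sal_114 and con_dex_122, the 2 libraries farthest from the median of Bdnf, so this relation rests on single libraries.

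Genes with the profile most like each member were taken from the 12862 genes with a mean of at least 100 normalized counts, by Pearson's r over the 16 libraries. For Ntrk3 they were Tet3 (r = 0.98), Nsd3 (0.98) and Abl2 (0.98), and for Ntrk2 they were Zcchc14 (0.97), Kdm6b (0.97) and 2900026A02Rik (0.96). Sort1 was closest to Gm9866 (0.97), Scn8a (0.96) and Adarb1 (0.96). Such likeness was common for these receptors: 8.58% of the candidates exceeded r = 0.8 with Ntrk3, 7.63% with Ntrk2 and 6.90% with Sort1. The share was 0.0233% for Bdnf and 0.0855% for Ngfr. Bdnf was closest to Tmtc4 (0.89), Rab40b (0.88) and Ebf1 (0.88), and Ngfr to Gm48623 (0.89), Stk32a (0.87) and Cyb5r3 (0.84). Without the 2 libraries farthest from each member's median, r of these 6 genes was 0.68 to 0.81.

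Markers of the cell types that a DRN punch can hold were set beside the members as scores, with 65 relations of 13 marker lists and 5 members. At an adjusted permutation p below 0.05 for r, 2 relations stood out. Sort1 ran against the choroid plexus score, which rests on 2 of 3 markers (r = -0.75, rho -0.83, adjusted permutation p 0.0292 and 0.00845). Here r was -0.75 without the 2 libraries farthest from the median score and -0.69 without con_sal_104 and AS_sal_40. The latter libraries had the highest choroid plexus scores, 1.78 and 1.98, and the lowest exon length slopes. The summed level of the choroid plexus markers ran from 9.91 to 197.0 normalized counts over the libraries, far below Sort1 itself. Ntrk3 ran against the serotonin neuron score (r = -0.78, adjusted permutation p 0.0341), but rho was -0.61 (adjusted permutation p 0.116) and r fell to -0.30 without con_sal_104 and AS_sal_40. Those libraries had the highest serotonin scores, 0.48 and 0.34. The part of tissue make-up or of the exon length slope in these values was not tested.

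Genes around the receptors were taken from 9 lists of the neurotrophin pathway, 133 genes of which 120 were measured. None was called in the 6 stress comparisons or the 3 interactions. In the DEX effect averaged over phenotypes, 6 were called higher and 4 lower of 120, against 2.78% higher and 1.53% lower of all genes. The median difference was 0.06 over the 120 genes and -0.00 over all genes tested. In single phenotypes Ptpn11 and Itpr2 rose in controls (1% of all genes), Nr3c1 fell in PS (0.124%), and Ptpn11 rose (0.538%) and Nr3c1 fell (0.152%) in AS mice. These calls were lost in several fits with 1 library fewer, while the differences changed little in most of them: Itpr2 in controls was 0.64 to 0.71 against 0.68, and Nr3c1 in PS mice -0.66 to -0.56 against -0.61. Ptpn11 in AS mice was 0.47 without AS_sal_40, against 0.60. With the exon length trend removed, Itpr2 in controls was 0.40 (limma adjusted p 0.241). In controls, that of Ptpn11 was lost without con_dex_101, con_dex_122 or con_sal_114 (limma adjusted p 0.101 to 0.240) and that of Itpr2 without any of the 3 DEX libraries (0.106 to 0.208). In AS mice, Ptpn11 was lost without AS_dex_38, AS_dex_42, AS_sal_14 or AS_sal_40 (limma adjusted p 0.115 to 0.842) and Nr3c1 without AS_dex_38 or AS_dex_42 (0.124 and 0.422). In PS mice, Nr3c1 was lost without PS_dex_34, PS_dex_64, PS_sal_62 or PS_sal_68 (limma adjusted p 0.211 to 0.423). The 7 measured relatives and partners of the receptors (Sorl1, Sorcs1, Sorcs2, Sorcs3, Lingo1, Rtn4r and Nradd) were not called, with averaged differences from -0.04 to 0.11.

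Among the 22 measured adaptors of active Trk receptors, Ptpn11 and Sh2b2 rose and Gab1 fell in the averaged comparison. Of all genes, 2.78% were called higher and 1.53% lower there. Ptpn11 encodes the phosphatase SHP2, which links receptor tyrosine kinases to Ras. It ranged from 8742 to 11873 normalized counts in the saline libraries (median 11368) and from 14604 to 17144 in the DEX libraries (median 16654). The 8 DEX values all lay above the 8 saline values, a pattern of 1.37% of all genes. The averaged difference was 0.55 (SE 0.069, limma adjusted p 0.000275). Controls differed by 0.53, PS mice by 0.53 and AS mice by 0.60.

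Sh2b2, an adaptor of receptor tyrosine kinases, ranged from 262.7 to 491.1 after saline and from 517.6 to 736.6 after DEX, again with no overlap. Its averaged difference was 0.74 (SE 0.12, limma adjusted p 0.00301). Gab1, a docking protein that brings PI3K and SHP2 to receptors, ranged from 1210 to 1617 after saline and fell to 938.7 to 1199 after DEX (-0.46, SE 0.087, limma adjusted p 0.00757).

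Of the 15 genes on the calcium and CREB route, Itpr2, Prkcd and Prkca rose, against 2.78% of all genes called higher. Itpr2, a calcium release channel of the endoplasmic reticulum, ranged from 870.6 to 1356 after saline and from 1750 to 1946 after DEX (0.58, SE 0.087, limma adjusted p 0.00121). Prkcd, a protein kinase C isoform, ranged from 592.2 to 806.8 after saline and from 922.5 to 1336 after DEX (0.59, SE 0.089, limma adjusted p 0.00134). Prkca, another isoform, rose by 0.40 (SE 0.082, limma adjusted p 0.0133), and its ranges overlapped slightly, with a highest saline value of 3801 and a lowest DEX value of 3771.

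Among 10 measured regulators of Bdnf transcription, 3 fell after DEX, against 1.53% of all genes called lower in the averaged comparison. Nr3c1, the glucocorticoid receptor itself, ranged from 5704 to 7386 after saline and from 3760 to 5624 after DEX, with no overlap, a fall without overlap seen in 0.51% of all genes (-0.54, SE 0.071, limma adjusted p 0.000423). Nr3c2, the mineralocorticoid receptor, fell by 0.36 on the log2 scale (SE 0.083, limma adjusted p 0.0299), and Bhlhe40, a repressor of transcription, fell by 0.26 (SE 0.066, limma adjusted p 0.0526). Bdnf differed by -0.00 in the same averaged comparison, from -0.36 in controls, 0.21 in PS and 0.14 in AS mice. A link of these regulators to Bdnf was not tested. The call of Nr3c2 was lost without PS_sal_62 or AS_dex_42 (limma adjusted p 0.102 and 0.121). That of Bhlhe40 was lost in 7 of 16 fits that left out 1 library, those without con_dex_101, PS_dex_34, PS_dex_64, PS_sal_62, PS_sal_68, AS_dex_42 or AS_sal_14 (0.105 to 0.258).

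Of the 8 measured genes of precursor processing, Furin was called higher (0.29, SE 0.083, limma adjusted p 0.0928), against 2.78% of all genes. That call was lost in 13 of 16 fits that left out 1 library (limma adjusted p 0.103 to 0.254; it held without con_dex_116, PS_dex_34 or AS_sal_14), and without con_sal_104 and AS_sal_40 the difference was 0.25 (limma adjusted p 0.2002). No gene of the lists for Ras to ERK (18 measured), PI3K to Akt (14), p75 signaling (16) or activity and Trk response genes (10) was called. Some markers of other cells were also called in the averaged DEX comparison, where 2.78% of all genes were called higher and 1.53% lower. Of 4 microglial markers, 2 were called lower, Cx3cr1 (-0.83) and P2ry12 (-0.59), and none lay above 0. Of 5 oligodendrocyte markers only Mog was called lower (-0.43), and 1 lay above 0. Of 3 markers of oligodendrocyte precursors only Pdgfra was called higher (0.30), 2 lay above 0 and the median was 0.05. The part of these markers in the pathway results was not tested.

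**Figure D4:**
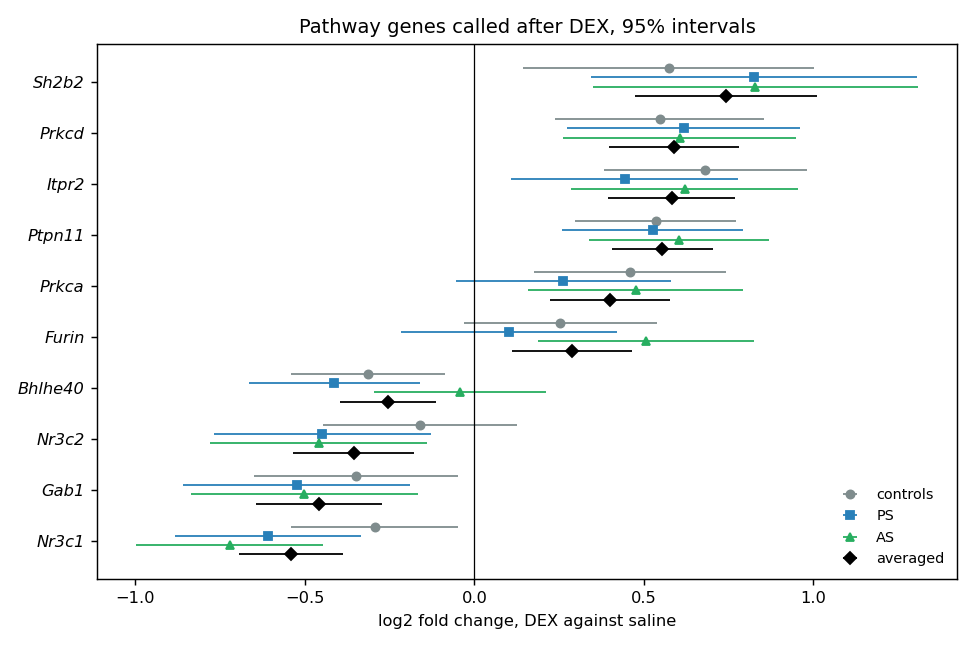
Log2 fold change for DEX against saline (horizontal axis) with 95% intervals for the 10 pathway genes called in the averaged comparison, shown for controls, PS and AS mice and for the average. Ptpn11 lies at 0.53, 0.53 and 0.60 in the 3 phenotypes, while Bhlhe40 is at -0.04 in AS mice.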

How the data were processed

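The authors trimmed reads with fastp 0.20.1, aligned them with HISAT2 2.2.1 to mm10 (GRCm38), counted genes with featureCounts (Subread 2.0, GENCODE annotation) and normalized them in DESeq2 1.36.0. The deposited signal values are normalized counts, reads per gene after division by a size factor of each library. All values (100%) became whole reads within 0.01 when multiplied back. The deposited tables of the authors' comparisons (log2 fold changes and p-values) were not used. DRN libraries with low Tph2 were excluded by the authors among DEX-treated stressed mice, and further DRN samples of the study were not analysed here.

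The main test was limma 3.58.1 (R 4.3.3) on log2(normalized count + 1), with 6 group means over 16 libraries, a mean-variance trend and BH adjustment over 14504 genes. Alternatives used edgeR 4.0.16, DESeq2 1.42.0, other pseudocounts (0.1 and 10), a mean of at least 100, TMM, library weights, only the groups compared, and each library left out. Leaving out both libraries that stood apart and removing the exon length trend were added after seeing the data. Scripts were tested on simulated data. Exon lengths came from GENCODE vM21. Correlations used 100000 permutations. Named genes were the 6 members, 3 like genes each, pathway genes called in any comparison (up to 15 by adjusted p), Fkbp5 and Tph2; marker genes called after DEX were named after their values were seen. Members and lists were chosen with earlier results of these data known. The study's methods call the replicates biological, and each library has its own number.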

Additional observations from a re-analysis of the deposited data

How the results depend on the processing

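No member was called in any comparison under any of the 26 alternatives, and the smallest adjusted p that any of them gave was 0.240 (Ntrk3, averaged DEX). Of the 65 member values, 32 kept their sign in every alternative run, as did 14 of the 20 DEX values. The counts of calls over all genes depended on the setting: DEX in controls gave 62 to 437 genes against 183, in PS 30 to 529 against 84 higher and 18 lower, in AS 6 to 1402 against 100, and averaged 356 to 1328 against 625. Stress and interaction counts, 0 or 1, reached at most 20. The upper ends in PS, AS and the average came with library weights, whose estimation stopped before its convergence tolerance. Of the 10 pathway genes, Ptpn11, Nr3c1, Itpr2, Prkcd, Sh2b2, Gab1 and Prkca stayed called in the averaged comparison under all 25 alternatives. Their calls in single phenotypes were each lost in 3 to 6 of 26. With 2 or 3 libraries a group, 95% intervals of Ngfr reached from -0.84 in PS to 1.15 in AS mice for DEX. Members had at least 307 reads in every library. No paired analysis was possible because the replicate numbers in the labels differ between all groups.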
